A study of Mus musculus with 8 samples.

Results

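Chemokines and cytokines of the type 2 immune response were followed in MOPC tumours that had grown in Tlr3/7/9-/- (KO) or WT mice. The set held 9 genes, the chemokines Ccl24, Ccl11, Ccl17 and Ccl22, the chemokine receptor Ccr3, the cytokines Il4, Il5 and Il13, and the receptor chain Il4ra. They were picked by symbol from 18194 measured genes and had 11 of the 45101 probe sets of the array. Ccl24 itself was chosen on its measured difference between KO and WT tumours at day 6, so its values in every comparison that uses those arrays are given here as a description without a test. Where a gene had several probe sets, the one with the highest mean signal was used.

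MOPC is a mouse oropharyngeal carcinoma line. Its cells were injected under the skin of C57BL/6 mice that lacked Tlr3, Tlr7 and Tlr9 in all host cells, or of WT C57BL/6 mice, and RNA of whole tumours was hybridised at 2 times after inoculation. The 4 groups were KO day 6, WT day 6, KO day 4 and WT day 4, with 2 arrays each and 1 tumour on each array. The injected tumour cells were the same in all groups and kept their own receptors, so that each sample mixed WT tumour cells with host cells of the named genotype. The mice of the day 6 tumours were 8 to 16 weeks old. The age of the mice at day 4, and whether those tumours came from separate mice, are not given in the sources, so the spread between the arrays of a group may be partly technical.

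CCL24 (eotaxin-2) and CCL11 (eotaxin-1) both bind CCR3, the receptor that brings eosinophils into tissue, and macrophages and stromal cells are among their known sources. CCL17 and CCL22 bind CCR4 on type 2 helper T cells and regulatory T cells and are made chiefly by dendritic cells and macrophages. IL-4, IL-5 and IL-13 are secreted by type 2 helper T cells, innate lymphoid cells, mast cells and basophils. IL-4 and IL-13 share the IL-4Rα chain, which signals through STAT6, and Ccl24, Ccl11, Ccl17 and Ccl22 are known targets of that pathway.

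Of the deleted genes, Tlr7, a receptor for single-stranded RNA, had signals of 80.1 and 10.8 in KO day 6 tumours against 471.3 and 466.1 in WT day 6 tumours, and of 70.0 and 25.2 in KO day 4 tumours against 382.9 and 673.4 in WT day 4 tumours. Tlr3, a receptor for double-stranded RNA, measured 338.6 and 224 in KO against 639.5 and 543.9 in WT at day 6, and 427.2 and 308.8 in KO against 605.4 and 811.1 in WT at day 4. Tlr9, a receptor for CpG DNA, lay under the filter on low signal and was not lower in KO, with 123.7 and 84.2 in KO against 20.8 and 58.5 in WT at day 6 and 128.5 and 102.2 in KO against 137.6 and 34.2 in WT at day 4. Probes that lie outside the deletion do not bear on the genotype. Other properties of the arrays touch several results. KO day 6 replicate 2, KO day 4 replicate 2 and WT day 4 replicate 2 carried skeletal muscle transcripts, with signals of Acta1, the skeletal muscle actin, of 22022.4, 9824.4 and 34991.8 against 336.4 to 652.8 on the other arrays, and KO day 6 replicate 2 also carried epidermal transcripts (Krt10 at 9762.5 against 467.9 to 599.4). Xist, which is transcribed from the inactive X chromosome, was at 5579.1 to 7121 on the day 6 arrays and at 44.6 to 142.1 on the day 4 arrays, and Eif2s3y on the Y chromosome was at 10.2 to 33.0 on the day 6 arrays and at 798.1 to 1176.7 on the day 4 arrays, so that a change between the days cannot be told apart from one with the sex of the hosts. In whole tumours, fewer cells of a type and less RNA per cell cannot be told apart either.

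Because STAT6 and, in type 2 lymphocytes, GATA3 are known regulators of these genes, the promoters were read for both motifs. RefSeq sequences of GRCm38.p6 covered 7 of the 9 members (not Ccl24 and Ccl11) with 8 promoters of 300 bases, 250 before and 50 after the start site. The STAT6 motif was TTC and GAA with a gap of 4 or 3 bases (TTCNNNNGAA or TTCNNNGAA), and the GATA motif was GATA with A or T before it and A or G after it, both searched on either strand. STAT6 motifs lay in the promoters of 2 members, Ccl17 and Il4, and in 14.6% of all 32851 promoters of the table. GATA motifs lay in those of 5 members, Ccl17, Ccr3, Il4, Il5 and Il13, and in 29.8% of all promoters. Ccl17 is shown because it held both motifs and passed the test between days in KO hosts, and Il5 and Il13 because both KO arrays were above both WT arrays at day 6. Capitals mark the motifs. The Ccl17 promoter lies on the plus strand at chr8:94810203-94810502, with STAT6 motifs starting 154 and 99 bases and a GATA motif starting 109 bases before the start site. The Il5 promoter lies on the plus strand at chr11:53720544-53720843 with 1 GATA motif starting 72 bases before the start site, and the Il13 promoter on the minus strand at chr11:53634653-53634952 with 1 GATA motif starting 81 bases before it. The motifs shown do not overlap, and a match of letters does not show that a factor binds there.
Ccl17: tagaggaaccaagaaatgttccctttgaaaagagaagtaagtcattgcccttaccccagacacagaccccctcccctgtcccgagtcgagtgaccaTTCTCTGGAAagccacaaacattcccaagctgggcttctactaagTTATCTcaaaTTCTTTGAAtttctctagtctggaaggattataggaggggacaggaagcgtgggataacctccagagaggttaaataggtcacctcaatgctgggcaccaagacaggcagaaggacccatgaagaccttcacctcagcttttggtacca
Il5: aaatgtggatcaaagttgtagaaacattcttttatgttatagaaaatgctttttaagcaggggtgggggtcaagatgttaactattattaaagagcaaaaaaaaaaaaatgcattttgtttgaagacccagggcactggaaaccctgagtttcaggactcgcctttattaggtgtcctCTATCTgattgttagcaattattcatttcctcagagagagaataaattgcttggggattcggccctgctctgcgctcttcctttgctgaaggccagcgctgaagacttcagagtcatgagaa
Il13: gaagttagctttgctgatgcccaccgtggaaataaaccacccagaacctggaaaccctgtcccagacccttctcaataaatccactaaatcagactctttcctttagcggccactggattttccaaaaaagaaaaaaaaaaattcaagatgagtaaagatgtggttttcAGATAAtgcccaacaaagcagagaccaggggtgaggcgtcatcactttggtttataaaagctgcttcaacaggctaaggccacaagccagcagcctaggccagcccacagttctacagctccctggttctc

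Ccl24 had the widest range of the members that passed the filter. Its signals were 6991.4 and 3323.3 in KO day 6 tumours, 1052 and 629.9 in WT day 6 tumours, 131.5 and 162 in KO day 4 tumours, and 747.5 and 477.8 in WT day 4 tumours. The genotypes did not overlap on either day and changed places, with KO tumours above WT tumours at day 6 and below them at day 4. The log2 fold change of KO against WT at day 6 was 2.54 (standard error 0.382, n = 2 each), the 16th highest of 12976 genes past the filter. At day 4, on arrays that played no part in choosing the gene, it was -1.92 (standard error 0.382, n = 2 each), a 0.264-fold level on the log2(signal + 16) scale that did not pass the test over all genes (unadjusted p = 0.000863, adjusted p = 0.373 from limma). In KO tumours Ccl24 differed by 4.90 on the log2 scale at day 6 against day 4, the 2nd highest value of the tested genes, and in WT tumours by 0.44. The difference between the KO effects of the days was 4.46. KO day 6 replicate 1, the highest of all arrays, had little muscle or epidermal RNA (Acta1 at 358.7, Krt10 at 512.6), and without the 3 arrays with muscle transcripts, which leaves 1 array in every group but WT day 6, the KO effect was 3.08 at day 6 and -2.37 at day 4. Macrophage markers, whose part in these values was not tested, were lower in KO tumours on both days, with a summed signal of 75620 to 76630 in KO against 102600 to 103300 in WT at day 6 and of 67130 to 68900 in KO against 96700 to 120700 in WT at day 4. All 9 markers passed the filter, and 8 of 9 had lower means in KO at each day, with 0 called.

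**Figure D1:**
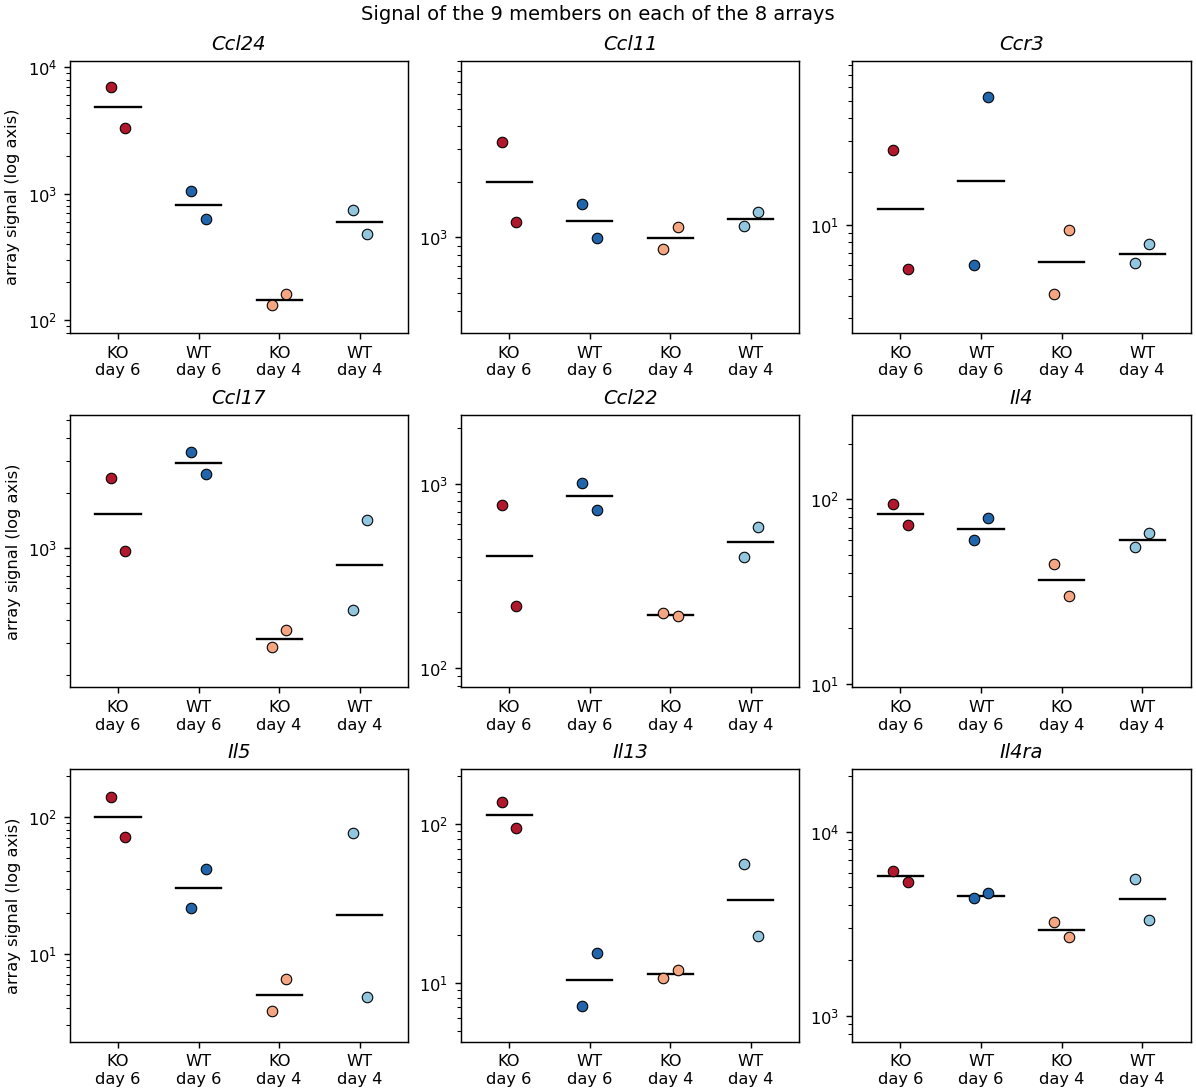
Signal of each of the 9 members (log axis, scaled separately in each panel) on the 8 arrays, for KO day 6, WT day 6, KO day 4 and WT day 4. Points are arrays and black lines geometric means of 2 arrays. All but Ccr3, Ccl17 and Ccl22 have their highest mean in KO day 6 tumours, and Ccl17 is lower in KO than in WT tumours on both days.

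Ccl11, the second eotaxin, did not follow Ccl24 at day 6. It measured 3288.7 and 1204.8 in KO day 6 tumours against 1526.8 and 996.6 in WT day 6 tumours, and 863 and 1138.9 in KO day 4 tumours against 1156.8 and 1375.1 in WT day 4 tumours. The genotypes overlapped at day 6, and at day 4 both KO arrays lay slightly below both WT arrays. Its log2 fold change was 0.68 at day 6 (standard error 0.414, adjusted p = 0.843 from limma) and -0.34 at day 4 (standard error 0.414, adjusted p = 0.951 from limma). The value at day 6 rests on KO day 6 replicate 1, without which it was -0.03.

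Ccr3, the receptor of both eotaxins, was near the floor of the array. It measured 26.6 and 5.7 in KO day 6 tumours, 6 and 52.5 in WT day 6 tumours, 4.1 and 9.4 in KO day 4 tumours, and 6.1 and 7.8 in WT day 4 tumours. These values lie under the filter at a mean signal of 78.6, and no fold change is given. The other defining genes of eosinophils were low too. Of 11 listed markers 7 were measured and 0 passed the filter, none of them at 0. The listed genes Ear1, Ear2, Ear6 and Ear10 were not measured, so these values say nothing of them. Epx, the eosinophil peroxidase, measured 67.2 and 7.3 in KO day 6 tumours against 12.4 and 57.4 in WT day 6 tumours, and Siglecf, a surface lectin of eosinophils, measured 6.8 and 53.5 in KO against 27.6 and 5.5 in WT. The summed signal of the 7 markers was 163.6 to 180.1 in KO day 6, 131.3 to 229.2 in WT day 6, 104.3 to 161.9 in KO day 4 and 100.9 to 343.4 in WT day 4 tumours. High Ccl24 was therefore measured in KO day 6 tumours without eosinophil transcripts above the filter, and a low signal of a probe set does not show that the cells were absent.

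Ccl17 and Ccl22, the ligands of CCR4, were on average lower in KO than in WT tumours on both days, and neither passed the test. Ccl17 measured 2407.5 and 964.9 in KO day 6 tumours against 3343.4 and 2538.5 in WT day 6 tumours, and 284.8 and 352.1 in KO day 4 tumours against 454.9 and 1413.3 in WT day 4 tumours. On both days each KO array lay below each WT array. Ccl22 measured 760.6 and 215.6 in KO day 6 tumours against 1001.7 and 723.1 in WT day 6 tumours, and 198.3 and 191.4 in KO day 4 tumours against 401.3 and 580 in WT day 4 tumours. It overlapped between genotypes at day 6 and did not at day 4. The log2 fold changes of Ccl17 were -0.93 at day 6 and -1.30 at day 4 (standard error 0.533 each, adjusted p = 0.834 and 0.684 from limma), and those of Ccl22 were -1.03 and -1.24 (standard error 0.488 each, adjusted p = 0.803 and 0.664 from limma). Without the 3 arrays with muscle transcripts, the day 6 values were -0.27 for Ccl17 and -0.16 for Ccl22. At day 4 the value of Ccl17 was -0.50 without WT day 4 replicate 2 and -2.10 without WT day 4 replicate 1.

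Dendritic cells are a known source of both chemokines. The summed signal of 8 of their markers was lower in KO tumours at day 6, at 2418 to 3481 in KO against 4846 to 5258 in WT. It overlapped at day 4, with 3011 to 3256 in KO against 3017 to 4760 in WT. The part of these cells in the values of Ccl17 and Ccl22 was not tested. Cd209a, a C-type lectin of monocyte-derived dendritic cells, measured 52.1 and 15.1 in KO day 6 tumours against 965.3 and 770.9 in WT day 6 tumours and fell by 4.26 on the log2 scale (adjusted p = 0.0228 from limma). It was the one gene of 6 tested dendritic cell markers that passed. Of these, Cd209a, Ccr7 and Itgax were lower on both KO arrays at day 6, while Flt3, Zbtb46 and H2-DMb2 overlapped. H2-DMb2, the brightest of the overlapping markers, measured 1646 and 1205.1 in KO against 1202.3 and 2272.4 in WT. Ccr7, the receptor that leads dendritic cells to lymph nodes, measured 262.4 and 89.0 in KO against 645.9 and 443.2 in WT at day 6, and its log2 fold change of -1.69 did not pass (adjusted p = 0.713 from limma). At day 4 Cd209a measured 88.6 and 115.5 in KO against 564.1 and 863.1 in WT. Ccr7 measured 275.7 and 315.2 in KO against 492.1 and 570.8 in WT. Neither passed at day 4 (adjusted p = 0.309 and 0.766 from limma). Of the 6 tested markers, 4 had negative and 2 positive values at day 4.

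The type 2 cytokines were dim, and all 3 lay under the filter on low signal, so their values come from the fit without that filter. Il13 measured 138.3 and 94.2 in KO day 6 tumours against 7.1 and 15.3 in WT day 6 tumours, and 10.7 and 12 in KO day 4 tumours against 55.8 and 19.8 in WT day 4 tumours. Like Ccl24 it was above WT on both KO arrays at day 6 and below WT on both at day 4. Its log2 fold change of KO against WT was 2.28 at day 6 (standard error 0.464, unadjusted p = 0.001, adjusted p = 0.726 from limma) and -0.89 at day 4 (standard error 0.464, adjusted p = 0.828 from limma). The WT day 6 and KO day 4 signals of Il13 lie near the floor, so the size of these values is set in part by the pseudocount, and at day 6 it was 3.33 with a pseudocount of 1 and 1.25 with 64. At day 4 it was -0.39 without WT day 4 replicate 1.

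Il5, the growth and survival factor of eosinophils, measured 140.1 and 71.5 in KO day 6 tumours against 21.8 and 41.8 in WT day 6 tumours, and 3.8 and 6.5 in KO day 4 tumours against 76.5 and 4.8 in WT day 4 tumours. It was higher on both KO arrays at day 6 and overlapped at day 4, where WT day 4 replicate 1 stood far above the other 3 arrays. The log2 fold change was 1.32 at day 6 (standard error 0.685, adjusted p = 0.838 from limma) and -1.06 at day 4 (standard error 0.685, adjusted p = 0.888 from limma), and 0.02 at day 4 without WT day 4 replicate 1. Il4 had the narrowest range of the 3, with 95 and 72.9 in KO day 6 tumours against 60.1 and 79 in WT day 6 tumours, and 44.8 and 30 in KO day 4 tumours against 55.1 and 65.7 in WT day 4 tumours. Its genotypes overlapped at day 6, where KO against WT gave 0.22 on the log2 scale (standard error 0.382, adjusted p = 0.951 from limma), and did not overlap at day 4, where it was -0.53 (standard error 0.382, adjusted p = 0.898 from limma).

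Genes of cells that can secrete these cytokines were read beside them, and their part in the cytokine values was not tested. Gata3, the transcription factor of type 2 lymphocytes, measured 139.6 and 313.9 in KO day 6 tumours against 62.7 and 95 in WT day 6 tumours, and 53.5 and 47.6 in KO day 4 tumours against 107.2 and 86.8 in WT day 4 tumours, thus changing places as Il13 did. Its log2 fold change of 1.28 at day 6 did not pass (adjusted p = 0.76 from limma), and its highest array, KO day 6 replicate 2, was the one with epidermal transcripts. The summed signal of 9 mast cell and basophil markers was 3361 and 5735 in KO day 6 tumours against 3177 and 2419 in WT day 6 tumours, and 2631 and 2282 in KO day 4 tumours against 2520 and 2997 in WT day 4 tumours. Of these markers 7 passed the filter and 0 were called. Hdc, the histamine-producing enzyme, measured 927.1 and 815.9 in KO day 6 tumours against 387.6 and 260 in WT day 6 tumours, with a log2 fold change of 1.41 (adjusted p = 0.875 from limma). Fcer1a, a chain of the high-affinity IgE receptor, measured 159.3 and 261.4 in KO against 93.6 and 71.3 in WT at day 6. Of the other markers past the filter, Cpa3 was also higher on both KO arrays at day 6, and Mcpt8, Kit, Mcpt4 and Cma1 overlapped. The higher sum and the higher Fcer1a signal in KO day 6 tumours were both on replicate 2, the array with epidermal and muscle transcripts. The summed signal of 8 T cell markers was 1297 and 1131 in KO against 1633 and 922.9 in WT at day 6 and overlapped.

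Il4ra, the chain shared by the receptors of IL-4 and IL-13, differed little in proportion. On its brightest probe set it measured 6150.3 and 5334 in KO day 6 tumours against 4372 and 4623.6 in WT day 6 tumours, and 3222 and 2683.5 in KO day 4 tumours against 5541.1 and 3313.4 in WT day 4 tumours. The genotypes did not overlap on either day and changed places, with log2 fold changes of 0.35 at day 6 and -0.54 at day 4 (standard error 0.223 each, adjusted p = 0.854 and 0.684 from limma), and -0.17 at day 4 without WT day 4 replicate 1. Its other probe sets did so only in part. The second set overlapped at day 6, with 3827.9 and 2714.5 in KO against 2909.3 and 3082.1 in WT, and was lower in KO at day 4, with 2168.8 and 1666.2 in KO against 3290.4 and 2670.1 in WT. The dim last set also overlapped at day 6, with 170.7 and 129.5 in KO against 132 and 108.5 in WT, and was lower in KO at day 4, with 114.2 and 144.2 in KO against 249.2 and 199.2 in WT.

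KO against WT called few genes of any kind. At day 6, 2 of 12976 genes passed limma's test (0.0154%) and 0 of the 8 members other than Ccl24, of which 1, Il13, had an unadjusted p under 0.05, as did 6.35% of all tested genes. At day 4, 2 genes passed (0.0154%) and 0 of 9 members, of which 4, Ccl24, Ccl17, Ccl22 and Il4ra, had an unadjusted p under 0.05, as did 7.11% of all tested genes. After adjustment, the methods' t-test called 0 genes at either day. With it 0 of the 4 members tested at day 6 and 2 of the 5 at day 4 had an unadjusted p under 0.05. Of all 12976 tested genes, 760 at day 6 and 815 at day 4 had such a p. With 2 arrays against 2 an exact permutation test cannot go below a two-sided p of 0.333, so none was run on single genes.

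By position alone, 4 of 9 members (Ccl24, Il5, Il13 and Il4ra) had both KO arrays above both WT arrays at day 6, as did 15.5% of all 18194 genes. At day 4, 7 of 9 members had both KO arrays below both WT arrays, all but Ccr3 and Il5, as did 17.4% of all genes. Ccl24, Il13 and Il4ra did both, as did 2.17% of all genes, and Ccl17 was below WT on both days, as were 4.41% of all genes. Ccl24 was chosen on the day 6 arrays and counts in these numbers, and the rest of the set was chosen with earlier results known. The interaction of genotype and day was 3.17 for Il13 (standard error 0.656), 2.38 for Il5 (standard error 0.969) and 0.89 for Il4ra (standard error 0.315). Without WT day 4 replicate 1 it was 1.3 for Il5 and 0.52 for Il4ra, and with a pseudocount of 64 it was 1.66 for Il13 and 1.31 for Il5. With all arrays, all 3 had an unadjusted p under 0.05 and an adjusted p of 0.985 to 0.995 from limma, and 0% of 12976 genes passed that test, against 568 at an unadjusted p under 0.05.

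**Figure D2:**
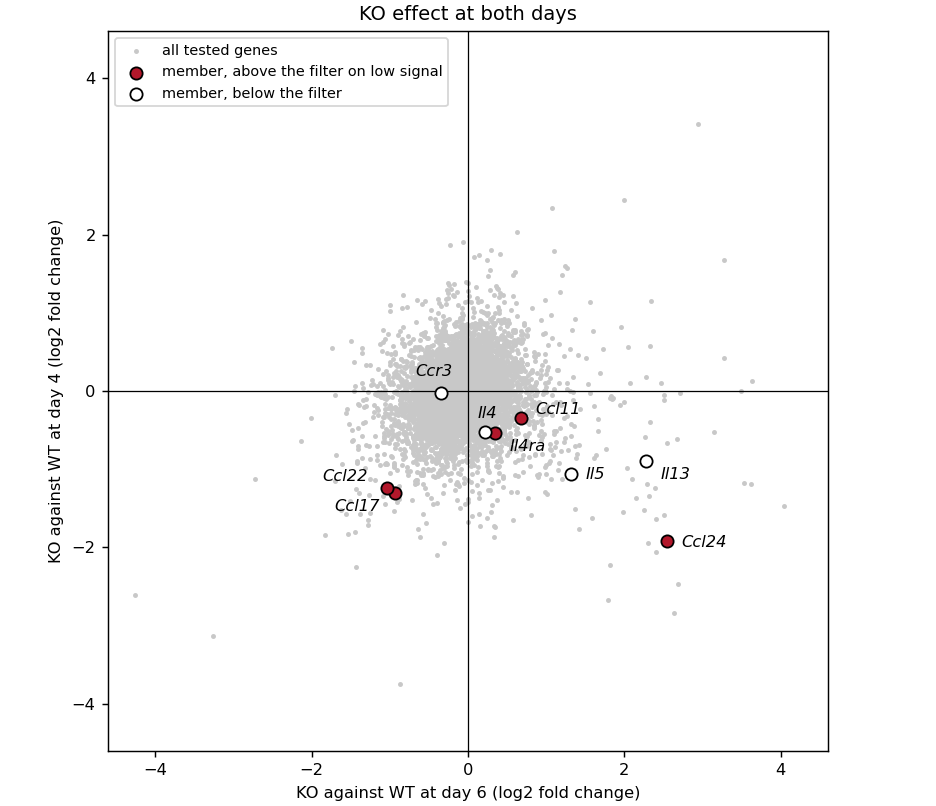
KO against WT at day 6 (x axis) and at day 4 (y axis), as log2 fold changes on the log2(signal + 16) scale, for 12976 tested genes (grey, 1 of them outside the axes) and the 9 members. Ccl24, Il13, Il5, Ccl11, Il4ra and Il4 lie at lower right, with means above WT at day 6 and below it at day 4, and Ccl17 and Ccl22 at lower left.

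Between the days, Ccl17 and Il4ra passed the test in KO hosts, as did Il13 in the fit without the filter, and 0 members passed in WT hosts. The test of the difference between the hosts, the interaction, passed for none. In KO tumours Ccl17 rose by 2.21 on the log2 scale at day 6 against day 4 (standard error 0.533, adjusted p = 0.0481 from limma) and Il4ra rose by 0.96 (standard error 0.223, adjusted p = 0.0449 from limma). These were 2 of the 4 members tested above the filter, where 3.71% of all genes were called higher. In the fit without the filter Il13 rose by 2.25 (standard error 0.464, adjusted p = 0.046 from limma), where 1.69% of all genes were called higher. Its KO day 4 signals of 10.7 and 12 were near the floor, and the value was 3.22 with a pseudocount of 1 (adjusted p = 0.06 from limma) and 1.25 with 64 (adjusted p = 0.0431 from limma). Il5 had a value of 2.47 (standard error 0.685, adjusted p = 0.0891 from limma), Ccl11 of 1.0 (adjusted p = 0.173), Ccl22 of 1.01 (adjusted p = 0.231) and Il4 of 0.91 (adjusted p = 0.222). The calls were narrow. With the replicate number as a block, Ccl17 (adjusted p = 0.0777 from limma) and Il13 (adjusted p = 0.072 from limma) did not pass, and with a pseudocount of 64 Ccl17 missed the threshold (adjusted p = 0.0515 from limma). The calls of Ccl17, Il4ra and Il13 were each lost when any 1 of the KO arrays or of the WT day 6 arrays was left out, with adjusted p from 0.058 to 0.271. Without KO day 6 replicate 2, which leaves 1 array in that group and takes the spread from the other groups, Ccl11 at 1.71 and Ccl22 at 1.88 passed (adjusted p = 0.046 and 0.0404 from limma). Il5 passed when either WT day 4 array was left out (adjusted p = 0.0361 and 0.0351 from limma).

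In WT tumours 5.83% of the tested genes were called between the days and 0 of the 8 members other than Ccl24. Ccl17 had 1.84 (standard error 0.533, unadjusted p = 0.00803, adjusted p = 0.0757 from limma), and it was the one member with an unadjusted p under 0.05, a p that 25.6% of all tested genes had. The methods' t-test gave 0 such members, and 1399 such genes of 12976. Ccl17 passed at 2.64 when WT day 4 replicate 2, the array with the most muscle RNA, was left out, with 1 array in that group and the spread taken from the others (adjusted p = 0.0247 from limma). Ccl22 had 0.80 (adjusted p = 0.347 from limma) and Il13 -0.91 (adjusted p = 0.322 from limma). The comparisons between days share their arrays with those between genotypes, so these are other views of the same 8 tumours.

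**Figure D3:**
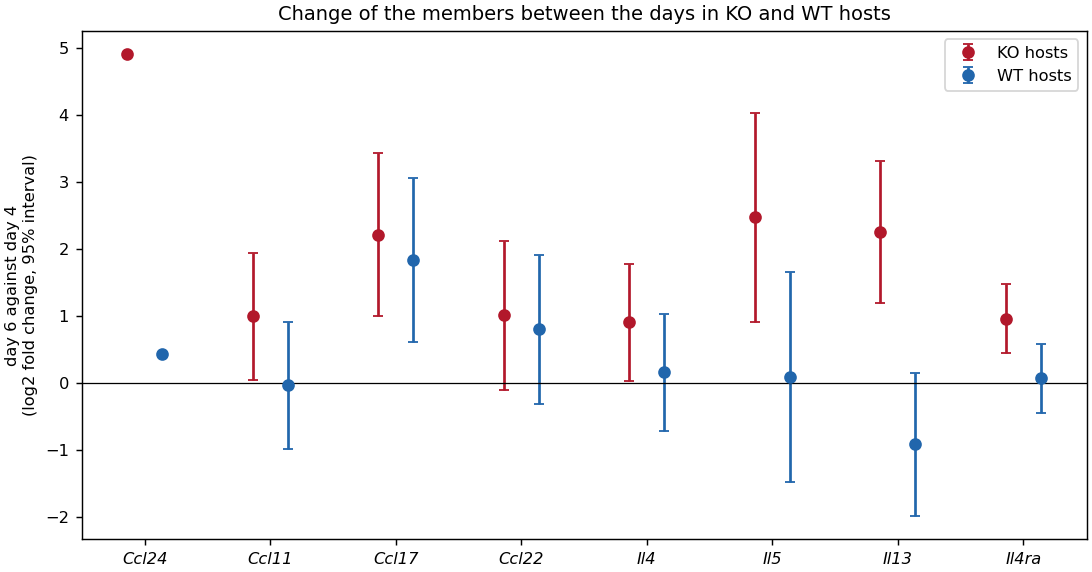
Day 6 against day 4 in KO hosts (red, left of each pair) and WT hosts (blue) as log2 fold changes with 95% intervals from limma, for 8 members; Ccr3 is left out because it stayed near the floor, and Ccl24 has no interval because it was chosen on these arrays. All 8 shown have a larger value in KO than in WT hosts, and Ccr3, left out, did not. The KO day 4 signals of Il5 and Il13 are near the floor too. No difference passed the test of the interaction, which was not run for Ccl24.

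Genes of the receptors and signalling chain of the pathway were called between days but not between genotypes. Of 20 listed genes 15 passed the filter, and between genotypes 0 were called by limma on either day, with a median log2 fold change of -0.02 at day 6 (-0.01 over all tested genes) and of -0.28 at day 4 (0.01 over all tested genes). At day 6 against day 4 in KO tumours 3 of the 15 were called higher, where 3.71% of all genes were. They were Il13ra2, the decoy receptor of IL-13, Csf2rb, the chain shared by the receptors of IL-3, IL-5 and GM-CSF, and Socs1, an inhibitor of cytokine signalling. Socs1 measured 1645.9 and 1056.6 in KO day 6 tumours against 235.5 and 307.2 in KO day 4 tumours, and it rose by 2.23 on the log2 scale (adjusted p = 0.0107 from limma). Il13ra2 rose by 2.41 (adjusted p = 0.0243 from limma) and Csf2rb by 1.51 (adjusted p = 0.00496 from limma), and Csf2rb also rose in WT tumours, by 0.66 (adjusted p = 0.0351 from limma). Il13ra2 and Socs1 had 1.49 and 0.86 in WT tumours without passing (adjusted p = 0.0704 and 0.0837 from limma). Both of their WT day 6 arrays lay above both WT day 4 arrays. Stat6, the transcription factor of the IL-4 receptor, stayed within 3312.2 to 4380.2 on all 8 arrays.

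Genes that IL-4 and IL-13 are known to induce gave a similar picture. Of 18 listed genes 12 passed the filter, and 0 were called between genotypes. At day 6 against day 4, 5 were called higher in KO tumours, where 3.71% of all genes were. In WT tumours 1 was called higher, as were 540 of all 12976 tested genes. The interaction, which tests the difference between the hosts gene by gene, called 0 of the 12. In KO the median was 0.65 (0.00 over all tested genes) and in WT 0.45 (0.01 over all tested genes). Tgm2, a transglutaminase of macrophages activated by IL-4, measured 22425.2 and 12390.1 in KO day 6 tumours against 4528.1 and 3566 in KO day 4 tumours and rose by 2.05 (adjusted p = 0.0127 from limma). Pdcd1lg2, the PD-1 ligand PD-L2, rose by 2.21 (adjusted p = 0.0132 from limma), Chil3, the lectin Ym1, by 3.20 (adjusted p = 0.0499 from limma), the chemokine Ccl8 by 1.07 (adjusted p = 0.0243 from limma) and Cdh1, E-cadherin, by 2.5 (adjusted p = 0.00733 from limma). Cdh1 is also a gene of epithelial tumour cells, and it rose in WT tumours too, by 2.65 (adjusted p = 0.00887 from limma). Not all genes of the list went this way. Retnla, a classical IL-4 target of mouse macrophages, measured 3190.2 and 1135.5 in KO day 6 tumours against 6412.8 and 3871.4 in WT day 6 tumours, lower on both KO arrays, with a log2 fold change of -1.38 that did not pass (adjusted p = 0.798 from limma). Arg1, arginase of such macrophages, overlapped at day 6, with 28013.8 and 16014.3 in KO against 12490.6 and 21511.1 in WT.

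Other chemokines and cytokines were read in the same way. Of 13 other CC chemokines past the filter, 4 were called higher in KO tumours at day 6 against day 4, where 3.71% of all genes were. They were the CCR2 ligands Ccl2 (by 2.0), Ccl7 (by 1.95) and Ccl12 (by 2.24), and Ccl8 (adjusted p from 0.0132 to 0.0249 from limma). Of them only Ccl12 was called in WT tumours, where it rose by 1.76 (adjusted p = 0.0209 from limma). Ccl2, Ccl7 and Ccl8 had 1.27, 1.19 and 0.60 in WT tumours (adjusted p from 0.0671 to 0.089 from limma). Both of their WT day 6 arrays lay above both WT day 4 arrays. Ccl6 fell by 0.72 in WT tumours at day 6 against day 4 (adjusted p = 0.0238 from limma) and had -0.45 in KO tumours (adjusted p = 0.0739 from limma). None of the 13 was called between genotypes. At day 6, 6 of them had a positive and 7 a negative log2 fold change of KO against WT. Ccl1 and Ccl5 were lower on both KO arrays at day 6. Ccl1 measured 140.6 and 50.8 in KO against 342.2 and 310.5 in WT, and Ccl5 measured 760 and 495.8 against 1262.1 and 1129.9. Of 8 type 1 genes past the filter, 0 were called between genotypes, with 2 positive and 6 negative values at day 6. Stat4 measured 161.6 and 123.5 in KO against 332.8 and 216.4 in WT at day 6. Il12b measured 79.5 and 79.7 in KO against 154.1 and 157.1 in WT. At day 6 against day 4, 3 of the 8 were called higher in KO tumours, against the same 3.71% of all genes. These interferon-induced chemokines, Cxcl9, Cxcl10 and Cxcl11, rose by 4.56, 3.61 and 2.55 (adjusted p = 0.0211, 0.0222 and 0.023 from limma). In WT tumours Cxcl9 rose by 3.51 (adjusted p = 0.0305 from limma). Cxcl10 and Cxcl11 had 2.19 and 1.71 there without passing (adjusted p = 0.0672 and 0.0568 from limma). A rise with the day was therefore not particular to type 2 genes. Of 5 alarmin and related cytokine genes past the filter, only Csf2, which encodes GM-CSF, was called. It rose in KO tumours by 2.33 (adjusted p = 0.034 from limma) and in WT tumours by 2.03 (adjusted p = 0.045 from limma). Il33, an alarmin that drives type 2 lymphocytes, measured 7409.2 and 8848.6 in KO day 6 tumours against 4460.7 and 6004.4 in WT day 6 tumours. Its log2 fold change of 0.64 did not pass (adjusted p = 0.865 from limma). At day 4 Il33 overlapped, with 11824 and 8452.9 in KO against 20223.3 and 5837.4 in WT. At day 6 it was the 1 gene of the 5 with a positive value, and 4 were negative. Tslp, of the same list, was lower on both KO arrays at day 6, with 60 and 69.3 in KO against 105.5 and 98.8 in WT. Its value of -0.55 did not pass (adjusted p = 0.864 from limma).

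**Figure D4:**
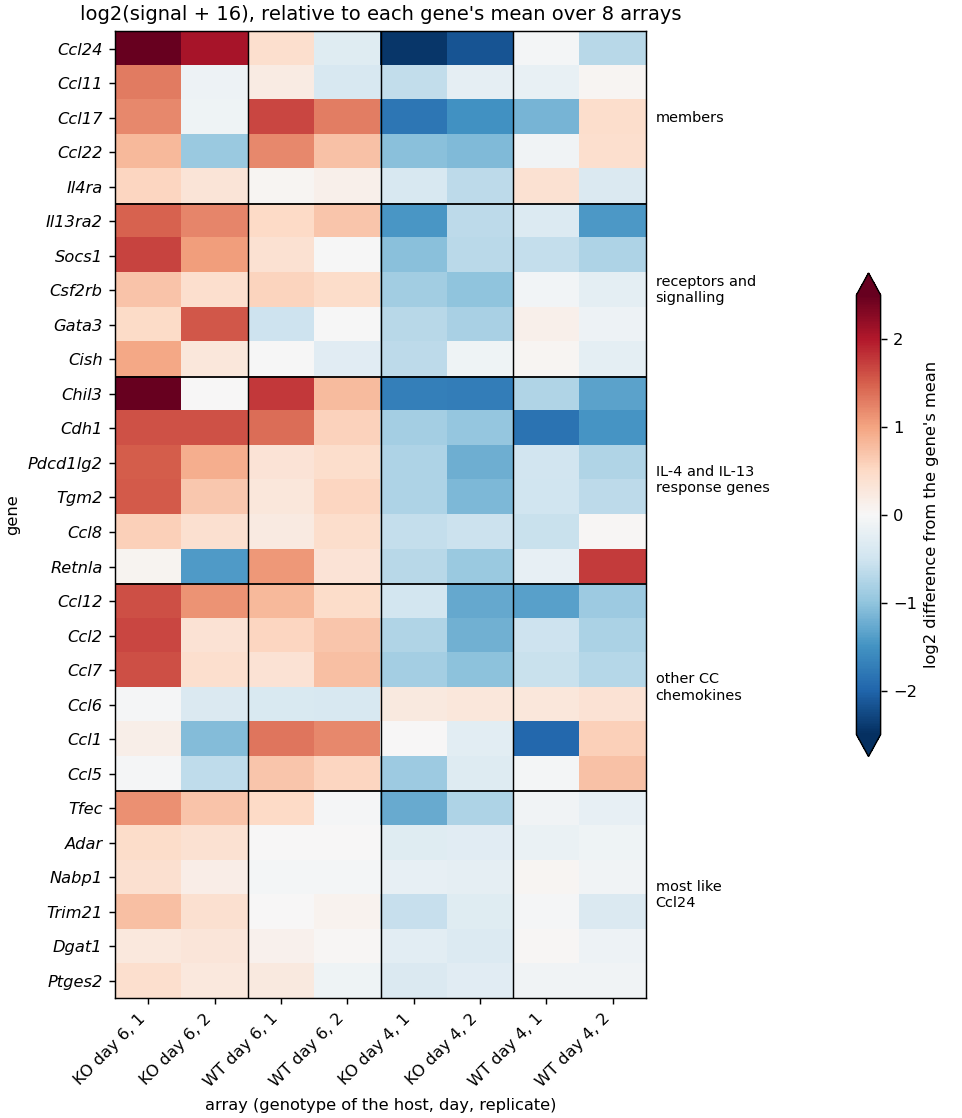
Level of 28 genes on the 8 arrays, as the log2 difference from each gene's own mean, with red above and blue below it. Members past the filter, the named pathway genes and the genes most like Ccl24 are grouped from top to bottom. Most genes of the upper groups are red in KO day 6 and blue in KO day 4 tumours. The pathway genes were named because they were called or differed most between genotypes at day 6. The last group was picked for its likeness to Ccl24. The colours therefore follow in part from a choice made on the same arrays.

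Across the 8 arrays, the genes whose log2 signal was most like that of Ccl24 were Tfec (Pearson r = 0.970), Adar (0.962), Nabp1 (0.958), Trim21 (0.958), Dgat1 (0.955) and Ptges2 (0.951). The 8 points are 4 pairs of arrays, and 77 of 12975 other genes (0.593%) had r above 0.9, so that the order is a description. Tfec, a transcription factor of macrophages, measured 1492.5 and 1108.8 in KO day 6 tumours, 954.9 and 657.4 in WT day 6 tumours, 269.3 and 385.6 in KO day 4 tumours, and 624.9 and 582.1 in WT day 4 tumours, the same order of groups as Ccl24 over a narrower range. Adar, an RNA editing enzyme that interferon induces, spanned only 1115.1 to 1902.4, and Trim21, an intracellular antibody receptor, spanned 669.8 to 1706. Among the members, r with Ccl24 was 0.87 for Il4ra and Il5, 0.83 for Il13, 0.82 for Il4, 0.76 for Ccl11, 0.62 for Ccl17, 0.45 for Ccl22 and 0.27 for Ccr3. Such values were not particular to the set. Genes outside it ranged widely, with 0.87 for Cxcl11, 0.86 for Ccl7, 0.78 for Xist, 0.01 for Cd8a and -0.87 for Mertk.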

How the data were processed

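RNA of 8 MOPC tumours was hybridised to Affymetrix arrays, and genotype, day and replicate came from the sample labels. For each probe set the authors deposited 1 linear signal intensity. Their processing notes name MAS5 without a version, and the 2% trimmed mean of every array was 1000, so their scaling is part of the values. Array medians were 133.2 to 175.2, and the number of arrays limits the precision. Detection calls were not used here.

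Of 45101 probe sets, 34958 had 1 symbol in the platform annotation, 932 had several and 9211 had none, and only the first were named. Of these, 34754 were matched by gene identifier to RefSeq (GRCm38.p6), which changed 0 symbols. For each of 18194 genes the brightest probe set by mean log2(signal + 16) was kept. The filter on low signal was the 40th percentile over probe sets, a mean signal of 78.6, and left 12976 genes. The 4 groups were fitted together with limma 3.58.1 in R 4.3.3 (trend on the mean, 4 residual degrees of freedom). Genes were called at an adjusted p under 0.05 (Benjamini-Hochberg, all tested genes). Members under the filter were taken from the same fit without it. The fit was tested on simulated data. Figures were drawn with matplotlib 3.10.9.

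Alternatives were quantile normalization, pseudocounts of 1 and 64, no filter, the 60th percentile as filter, averaged probe sets per gene, the compared groups alone, a replicate block, the methods' t-test and leaving out each array. Genes named beside the members were drawn from the called genes of each list (at most 6) and the 3 with the largest difference at day 6. Not every gene that this rule picks is named. Added to them were the 6 genes most like Ccl24, the deleted receptors, Krt10 and Acta1. Epx, Siglecf, Stat6, Arg1, Xist and Eif2s3y fall outside that rule and were chosen after their values were seen, as was the GATA motif. Krt8 also falls outside it. So do Flt3, Zbtb46, H2-DMb2, Mcpt8, Kit, Mcpt4 and Cma1, the remaining markers past the filter in their lists. The members and lists were chosen with earlier results of these data known.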

Additional observations from a re-analysis of the deposited data

Results flagged for a closer look

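Several genes had both KO arrays on one side of both WT arrays at day 6 and on the other side at day 4, which set them apart for a closer look. The difference between the KO effects of the days was 4.46 for Ccl24 on the log2 scale, which was not tested because the gene was chosen on the day 6 arrays. It was 3.17 for Il13, 0.89 for Il4ra and 2.04 for Gata3. Among the IL-4 and IL-13 response genes it was 1.21 for Pdcd1lg2, the ligand PD-L2, and 1.05 for Tgm2, a transglutaminase. Ccl6 differed by 0.27 and Krt8, a keratin of carcinoma cells, by 0.46.

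The opposite order, KO below WT at day 6 and above it at day 4, was seen for Il17rb, the receptor of the alarmin IL-25, at -1.19 and for Pdgfrb, a receptor of fibroblasts and pericytes, at -0.64. Il17rb was dim, at 55.8 to 149.5 over all arrays, with the filter at a mean signal of 78.6. None of the tested differences passed limma's test of the interaction (adjusted p = 0.985 to 0.995), and 2.17% of all genes had the first order. The share of all genes with the opposite order was not counted, so nothing is read from the genes that had it.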

How the results depend on the processing

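The values rest on 2 arrays a group, so that a group with 1 array left out is assumed to vary like the others, and without the 3 arrays with muscle transcripts the spread comes from WT day 6 alone. Also, signals near the floor (Ccr3, Il4, Il5 and Il13) limit what can be compared. Of the values of single members under other settings, 468 kept their direction and side of the threshold, or stayed within the spread for Ccl24, 30 lost their call, 7 gained one, 9 of Ccl24 moved by more than the spread and 2 reversed. Ccl11 at day 6 ran from -0.03 (without KO day 6 replicate 1) to 1.40 over the left-out arrays, and Il5 at day 4 from -2.13 to 0.02 (without WT day 4 replicate 1). The causes were not tested.

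KO against WT at day 6 called 2 genes, and 0 with a pseudocount of 1, the 60th percentile filter, the compared groups alone, the replicate block, the methods' t-test or without the 3 arrays with muscle transcripts, a setting chosen after seeing the data. Leaving out 1 array gave 0 to 26, with 26 without KO day 6 replicate 1. At day 4 it called 2, with 1 under the 60th percentile filter and in the compared groups alone, 0 by the methods' t-test and 0 to 11 without 1 array. Members called stayed at 0 in both comparisons.

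Day 6 against day 4 in KO called 809 genes, 523 with no filter, 398 with the mean of all probe sets, 1747 in the compared groups alone, 325 with the replicate block, 1 by the methods' t-test, 94 without the muscle arrays and 3 to 1368 without 1 array. Of the 2 members called, 1 was left with a pseudocount of 64, with no filter, with the replicate block and without the muscle arrays, 0 with the mean of all probe sets and by the methods' t-test, and 0 to 2 without 1 array. In the replicate block Ccl17 (adjusted p = 0.0777 from limma) and Il13 (0.072) were lost and Il4ra passed, and the block changed no other call of a member.

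Day 6 against day 4 in WT called 756 genes, 473 with the mean of all probe sets, 11 in the compared groups alone, 463 with the replicate block, 0 by the methods' t-test, 172 without the muscle arrays and 4 to 890 without 1 array, with 4 without WT day 6 replicate 1. Members called were 0, with 1 (Ccl17) without the muscle arrays and 0 to 1 without 1 array. The interaction called 0 genes, 4 without the muscle arrays and 0 to 9 without 1 array. Unadjusted, the methods' t-test gave 760 genes for KO against WT at day 6, 815 at day 4, 2627 between days in KO and 1399 in WT.

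The correlation of deviations between arrays of the same replicate number was 0.21 to 0.27 for the 3 pairs among KO day 6, KO day 4 and WT day 4, whose replicate 2 arrays all carry muscle transcripts, and -0.12 to -0.03 for the 3 pairs with WT day 6. Since it was not above 0.1 for every pair, the numbers were not taken to pair the arrays. Ranked by Spearman's rho, 1 of the 6 genes most like Ccl24 stayed among the first 6.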
